A study of Mus musculus with 12 samples.

Results

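Transcripts of 37 microglia genes were measured in the auditory cortex of acute mouse brain slices with and without a pharmacological stimulus of neuronal activity. The genes were taken by name from a list of genes known for their expression in microglia. All 37 were present among the 20989 loci of the tables, each at 1 locus, and 35 passed the filter of a mean of at least 1 FPKM (fragments scaled to transcript length and to the number of mapped fragments) over the libraries. Acute slices from C57bl6/J mice aged 4 weeks were divided at the midline, so that each of 6 mice gave a hemisphere kept for 1 h in artificial cerebrospinal fluid (control) and a hemisphere kept for 1 h in the same fluid with the cocktail. The cocktail held 50 µM bicuculline, a blocker of GABA-A receptors, with 100 µM norepinephrine, 50 µM carbamoylcholine, an agonist of acetylcholine receptors, 100 µM dopamine, 100 µM serotonin and 40 µM ascorbic acid. Both hemispheres had first been cut and left to recover in a choline chloride buffer. The study's methods add a final rest of both for 1 h in fluid without drugs, which the sample labels do not list. By those methods the RNA was taken after this rest and not at the end of the exposure. Neither group therefore stands for intact cortex, and the cocktail agents were not given singly. Polyadenylated RNA was read from the whole dissected auditory cortex of each hemisphere, 12 libraries in all.

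Microglia are the resident macrophages of the brain. They survey the tissue with motile processes, take up debris and synapses, and depend on the growth factor receptor Csf1r and on the transcription factor PU.1, the product of Spi1. In slices they respond within minutes to cutting injury, and several of their receptors bind nucleotides, lipids, norepinephrine or the neuronal chemokine fractalkine. In RNA from whole tissue, fewer microglia and less RNA per microglial cell cannot be told apart.

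The promoters of the genes were searched for the letters of an ETS motif of the kind that PU.1 binds. AGGAAGT, searched as written and as its reverse complement ACTTCCT, stood in the promoters of 11 of the 26 members in the table (42.3%), against 10.7% of the 27025 genes in it, with each window running from 250 bases before the start to 50 after it. The 11 were C1qb, C1qc, Cd53, Ctss, Cyth4, Fcrls, Gpr84, Inpp5d, P2ry12, Ptprc and Sall1. The AP-1 motif TGACTCA, searched on both strands in the same way, stood in 1 of the 26 (3.85%, Cd68) and in 5.95% of all genes. These matches describe letters in a window and do not show a bound site.

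The promoters of C1qb, C1qc and Ctss are shown because these were the most abundant members, and that of P2ry12 because it is a receptor gene that marks microglia and not most other macrophages. The motif is in capitals. All are from RefSeq on GRCm38.p6, read in the direction of transcription, at chr4:136886151-136886450 (minus strand), chr4:136892865-136893164 (minus strand), chr3:95526536-95526835 (plus strand) and chr3:59262936-59263235 (minus strand). The P2ry12 window lies upstream of the locus as the tables give it.
C1qb: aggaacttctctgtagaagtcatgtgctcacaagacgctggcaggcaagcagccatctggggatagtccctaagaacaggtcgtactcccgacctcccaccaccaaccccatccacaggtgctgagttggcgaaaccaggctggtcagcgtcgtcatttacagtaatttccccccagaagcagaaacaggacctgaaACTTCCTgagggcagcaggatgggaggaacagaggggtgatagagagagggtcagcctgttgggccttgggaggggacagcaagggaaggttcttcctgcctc
C1qc: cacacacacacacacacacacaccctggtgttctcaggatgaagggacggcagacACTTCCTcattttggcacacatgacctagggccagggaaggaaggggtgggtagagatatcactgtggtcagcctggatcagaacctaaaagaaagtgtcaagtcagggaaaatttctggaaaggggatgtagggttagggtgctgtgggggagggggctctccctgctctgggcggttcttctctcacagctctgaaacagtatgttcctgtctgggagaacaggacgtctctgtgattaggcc
Ctss: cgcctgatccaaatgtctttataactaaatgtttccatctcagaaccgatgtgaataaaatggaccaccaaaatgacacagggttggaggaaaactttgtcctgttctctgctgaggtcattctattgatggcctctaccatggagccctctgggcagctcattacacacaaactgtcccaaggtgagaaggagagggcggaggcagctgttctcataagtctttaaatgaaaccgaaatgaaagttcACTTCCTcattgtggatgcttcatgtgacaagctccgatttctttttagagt
P2ry12: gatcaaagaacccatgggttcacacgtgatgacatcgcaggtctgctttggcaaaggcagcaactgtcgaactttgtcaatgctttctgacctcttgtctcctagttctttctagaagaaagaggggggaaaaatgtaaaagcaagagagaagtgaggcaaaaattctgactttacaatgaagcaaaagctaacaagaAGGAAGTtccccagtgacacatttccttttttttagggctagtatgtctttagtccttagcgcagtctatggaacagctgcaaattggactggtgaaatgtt
The motif reads as ACTTCCT in C1qb, C1qc and Ctss and as AGGAAGT in P2ry12. In Ctss it crosses the RefSeq start, at bases 249 to 255 of the window, in C1qb and P2ry12 it lies close upstream of it, at bases 198 to 204 and 199 to 205, and in C1qc it lies far upstream, at bases 56 to 62.

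The libraries held 10601067 to 19768881 reads on genes in control and 13544297 to 17643462 in cocktail, of which the 37 genes took 6217 to 12628 and 7640 to 10632. This was 0.0570% to 0.0639% of a control library and 0.0546% to 0.0684% of a cocktail library, so most members rested on few reads: the lowest number in any library was 26 for Slc2a5, and the median over members of that lowest number was 101. The 8 immediate-early genes taken as a check that the cocktail had acted, Fos among them, were all called higher, beside 1.22% of all loci. Their median was 0.85 on the log2 scale. They were chosen with earlier results of these data known, so they are not an independent check. Markers of monocytes, neutrophils and lymphocytes summed to at most 0.738 FPKM in any library, none passed the filter, and Cd3e, Ms4a1 and Nkg7 were at 0 in all 12. Border macrophage markers summed to 5.48 to 7.23 FPKM in control and 6.53 to 7.97 in cocktail, with Cd163, Lyve1 and Mrc1 under the filter, and 2 of the 9, Pf4 and Stab1, were tested and not called, with 1 of them, Stab1, at an unadjusted p under 0.05.

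Complement and lysosomal transcripts were the most abundant microglia transcripts in control slices. C1qb, a chain of the complement protein C1q, which tags debris and synapses for removal, had the highest mean, 26.0 ± 2.04 FPKM (SD, n = 6), and C1qc had 24.5 ± 2.03. Ctss, the lysosomal protease cathepsin S, had 23.0 ± 3.48, Csf1r 20.1 ± 0.893 and C1qa 17.8 ± 1.91. These 5 genes held 38.9% of the summed FPKM of all members. Laptm5, Tyrobp, Fcer1g and Cd68 followed at 17.7 to 13.8 FPKM, and the receptors P2ry12 and Cx3cr1 stood at 8.21 ± 0.875 and 7.04 ± 0.866. Tmem119, Gpr34, Siglech and Sall1, genes that separate microglia from other macrophages, were at 2.61 to 3.70 FPKM. Ptprc, the leukocyte phosphatase CD45, and Slc2a5, a fructose transporter, were under 1 FPKM with 0.795 ± 0.126 and 0.694 ± 0.0867. The median of the 37 control means was 4.35 FPKM, and over the 35 tested it was 4.91, below the 10.2 FPKM of all 12032 loci tested.

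**Figure D1:**
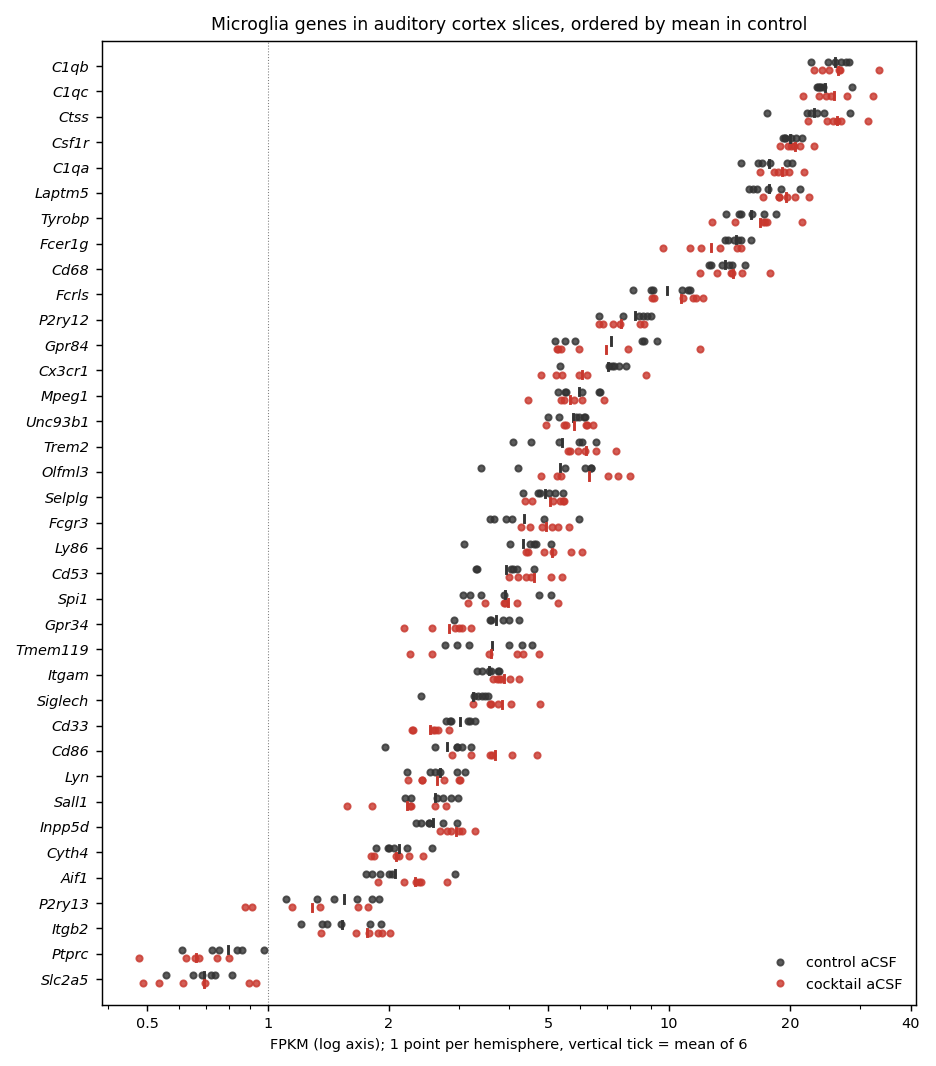
FPKM of each of the 37 microglia genes (log axis, 1 point per hemisphere, vertical ticks for the means of 6), ordered by the mean in control. Control and cocktail points overlap for every gene, and the means run from 26.0 FPKM for C1qb to 0.694 for Slc2a5.

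The order of neighbouring genes was mostly not resolved. Of the 36 pairs of neighbours in the control order, 5 kept it in all 6 mice, namely Csf1r over C1qa, Laptm5 over Tyrobp, Cd68 over Fcrls, Cx3cr1 over Mpeg1 and Itgb2 over Ptprc. The means minus and plus 1 SD stood apart only for Cd68 and Fcrls and for Itgb2 and Ptprc. Csf1r was the steadiest member over the 6 control hemispheres with a coefficient of variation of 4.45%, and Gpr84, a fatty acid receptor that is known to be induced in inflamed microglia, the least steady with 26.0%. Counting error of the reads alone gives 2.74% and 8.68% for these genes. The median coefficient of variation was 12.3%, against 7.84% from counting, and 31 of the 37 genes were under 20%. On the log2(FPKM + 1) scale the SD over control hemispheres had a median of 0.15 for the members tested and 0.14 for all loci tested.

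The cocktail left the summed level of the 37 genes close to control. The sum was 274, 287 and 300 FPKM (lowest, median and highest) in control and 270.2, 298 and 342 in cocktail, and the means were 286 ± 8.78 and 298 ± 26.4 (SD, n = 6 each). The groups overlapped, and the cocktail hemisphere was higher in 4 mice and lower in mice 1 and 2. The mean within-mouse log2 ratio of the sums was 0.05 (SD 0.084), from -0.04 in mouse 1 to 0.19 in mouse 5, where the sum went from 300 to 342 FPKM.

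Of the 35 members tested, 1 was called at an adjusted p under 0.05 (limma, Benjamini-Hochberg adjustment over all loci), the receptor gene Gpr34, which was lower. Over all 12032 loci tested 180 were called (1.50%), 147 higher (1.22%) and 33 lower (0.274%). The 1 member is 2.86% of 35, near that background, and is not read as a result about the list. At an unadjusted p under 0.05 stood 13 of the 35 (37.1%), beside 8.05% of all loci, and 12 of these 13 were not called. Among the 13, 9 had positive differences (Ly86, Olfml3, Cd86, Cd53, Ctss, Trem2, Siglech, Fcgr3 and Inpp5d) and 4 negative ones (Gpr34, Cd33, Fcer1g and Sall1). The log2 fold changes on log2(FPKM + 1) were positive for 23 members (65.7%) and negative for 12, against 54.4% positive among all loci, and 19 members were positive in the voom fit and also without mouse 5. Their median was 0.06 for the members and 0.01 for all loci. Without mouse 5 it was 0.00427 for the members, below the 0.0190 of all loci. The median size of the difference, regardless of sign, was 0.12 for the members and 0.05 for all loci.

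On the log2(FPKM + 1) scale, differences beyond 0.5 lay outside the intervals of nearly all members. This scale understates changes of low genes, so the bounds are not those of the transcript level itself. With a pseudocount of 0.1, Gpr34 had -0.38 in place of -0.30 and Cd86 0.38 in place of 0.30. The 95% interval of the log2 fold change lay within 0.5 of 0 for 34 of the 35 members and within 0.25 of 0 for 15, and the bound farthest from 0 was 0.51, for Cd86. The distance from the estimate to either bound had a median of 0.14. Ly86, Trem2 and Ctss were higher in the cocktail hemisphere of all 6 mice, which 3.64% of all loci were, and Gpr34, Sall1 and Cd33 were lower in all 6, which 2.66% were. The values of control and cocktail did not overlap for 0 of the 35 members and for 0.914% of all loci. Differences of both signs entered the sum.

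**Figure D2:**
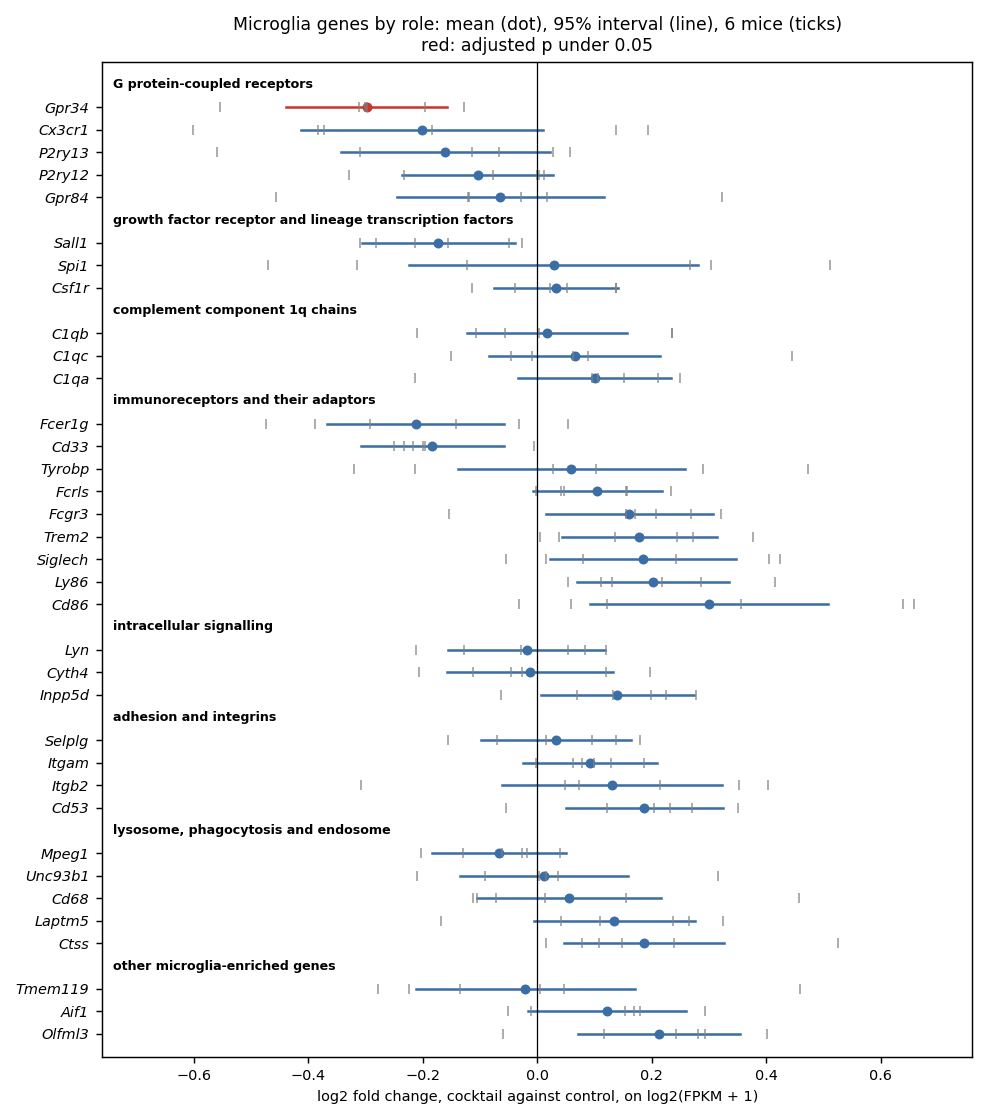
Log2 fold change of cocktail against control on log2(FPKM + 1) for the 35 microglia genes tested, grouped by role (dot, mean; line, 95% interval; grey ticks, 6 mice). Gpr34 is the only gene in red (adjusted p under 0.05), the 5 G protein-coupled receptors all lie left of 0, and the interval of Cd86 reaches furthest, to 0.51.

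The 5 G protein-coupled receptors among the members all had negative log2 fold changes, from -0.30 to -0.06 with a median of -0.16. Of all loci 54.4% were positive, and 1.50% were called, as was 1 of the 5. Gpr34, a receptor for the lipid lysophosphatidylserine (chrX:13632769-13640858, mm10), had 2.92, 3.73 and 4.23 FPKM (lowest, median and highest) in control and 2.19, 2.96 and 3.21 in cocktail. The groups overlapped because control mouse 1, at 2.92 FPKM, lay below the cocktail values of several other mice, while within each mouse the cocktail hemisphere was lower. The pairs went from 2.92 to 2.19 FPKM in mouse 1, from 4.23 to 2.56 in mouse 2, from 4.00 to 3.05 in mouse 3, from 3.86 to 2.92 in mouse 4, from 3.58 to 3.00 in mouse 5 and from 3.60 to 3.21 in mouse 6. The log2 fold change was -0.30 (SE 0.064, 95% interval -0.44 to -0.16, adjusted p 0.0428), and flipping the signs of the 6 paired differences in an exact two-sided permutation test gave p = 0.03125, below which 6 pairs cannot go. The call rested on 59 to 105 reads per library and was lost, with adjusted p of 0.0787 to 0.163, when any of mice 1 to 5 was left out, with 0.137 without the filter on low values, with 0.186 without the mouse as a block and with 0.181 in a voom fit of the reads behind the FPKM values. Gpr34 lies inside Cask on the opposite strand and shares no exon bases with it.

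Cx3cr1, the receptor for the neuronal chemokine fractalkine, had 5.34, 7.24 and 7.79 FPKM in control and 4.79, 5.69 and 8.74 in cocktail. Mouse 6 was at 8.74 FPKM in cocktail, above every control hemisphere, and mouse 2 was at 5.34 in control, below the other 5, and these 2 mice were the ones in which the cocktail hemisphere was higher. The log2 fold change of Cx3cr1 was -0.20 (SE 0.097, 95% interval -0.41 to 0.01, adjusted p 0.658). P2ry12, the ADP receptor that steers microglial processes towards injury, had 6.70, 8.50 and 9.04 FPKM in control and 6.69, 7.39 and 8.64 in cocktail, with a log2 fold change of -0.10 (SE 0.060, 95% interval -0.24 to 0.03, adjusted p 0.755) and 4 of 6 mice lower. The ADP receptor P2ry13 had -0.16 and Gpr84 -0.06, each with 4 of 6 mice lower, and neither was called. P2ry12 and P2ry13 both lie inside Med12l on the opposite strand, and P2ry12 shares 9 exon bases with it. Gpr84 shares 681 exon bases with the antisense gene Gm49482 and Cx3cr1 78 with the antisense gene Gm33858, so their levels may hold reads of these genes if strand was not used in the estimate. All 5 receptors stayed negative in every alternative in which they were tested except without mouse 6, where 4 of 5 did.

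Csf1r, the receptor for the growth factors Csf1 and Il34, had 19.2, 19.8 and 21.5 FPKM in control and 18.9, 20.3 and 22.9 in cocktail. The ranges nearly coincided, and the log2 fold change was 0.03 (SE 0.050, 95% interval -0.08 to 0.14, adjusted p 0.922). Csf1r shares 873 exon bases with Hmgxb3 on the opposite strand, so part of its level may belong to that gene if strand was not used in the estimate. Spi1 had a log2 fold change of 0.03 with the interval -0.22 to 0.28, and its within-mouse differences were 3 negative and 3 positive. Sall1, a zinc finger factor that maintains microglial identity, had 2.19, 2.69 and 2.97 FPKM in control and 1.58, 2.27 and 2.78 in cocktail. The groups overlapped, but the cocktail hemisphere was lower in all 6 mice, with a log2 fold change of -0.17 (SE 0.061, 95% interval -0.31 to -0.04, adjusted p 0.383).

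None of the 3 C1q chains was called by limma or voom, and 0 had an unadjusted p under 0.05. C1qa had 15.2, 17.4 and 20.2 FPKM in control and 16.8, 19.0 and 21.7 in cocktail, C1qb had 22.5, 26.4 and 28.2 and then 23.0, 25.7 and 33.3, and C1qc had 23.4, 23.7 and 28.6 and then 21.6, 24.9 and 32.2. All 3 overlapped widely between the groups, and cocktail mouse 5 held the highest value of each. The log2 fold changes were 0.10 (SE 0.061, 95% interval -0.03 to 0.23, adjusted p 0.778) for C1qa, 0.02 (SE 0.064, 95% interval -0.12 to 0.16, adjusted p 0.974) for C1qb and 0.07 (SE 0.068, 95% interval -0.08 to 0.21, adjusted p 0.886) for C1qc. The sign of C1qb turned without mouse 4, without mouse 5 and in the voom fit, and that of C1qc without mouse 5.

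Immunoreceptors and their adaptors differed in sign. Of the 9, 7 had positive and 2 negative log2 fold changes, 5 and 2 of them at an unadjusted p under 0.05, and none was called. Cd86, a co-stimulatory ligand for T cells, had the largest positive difference of any member: it had 1.96, 2.96 and 3.20 FPKM in control and 2.88, 3.59 and 4.69 in cocktail. The cocktail hemisphere was higher in 5 of 6 mice with overlapping groups, and the log2 fold change was 0.30 (SE 0.095, 95% interval 0.09 to 0.51, adjusted p 0.264). Ly86, which encodes the partner protein of the receptor Cd180, had 3.08, 4.55 and 5.08 FPKM in control and 4.41, 5.00 and 6.08 in cocktail, higher in all 6 mice. Its log2 fold change was 0.20 (SE 0.061, 95% interval 0.07 to 0.34, adjusted p 0.220). Trem2, the lipid-sensing receptor that signals through Tyrobp, had 4.07, 5.64 and 6.56 FPKM in control and 5.59, 6.05 and 7.38 in cocktail, also higher in all 6, with a log2 fold change of 0.18 (adjusted p 0.356). Tyrobp itself had 0.06 with the interval -0.14 to 0.26. Fcrls, an Fc receptor-like gene of microglia, had 9.90 ± 1.32 FPKM in control and 10.7 ± 1.31 in cocktail (SD, n = 6), and a log2 fold change of 0.11 (limma adjusted p 0.671).

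The members on the other side were Fcer1g and Cd33. Fcer1g, the common gamma chain of Fc receptors, had 13.8, 14.7 and 16.0 FPKM in control and 9.64, 12.7 and 15.1 in cocktail, lower in 5 of 6 mice. Its cocktail hemispheres spread more widely than its control hemispheres, with SDs of 2.13 and 0.819 FPKM. The control coefficient of variation, 5.56%, was however below the 9.33% that counting error alone gives. The log2 fold change of Fcer1g was -0.21 (SE 0.071, 95% interval -0.37 to -0.06, adjusted p 0.313). Cd33, a receptor of the Siglec family of lectins, had 2.77, 3.01 and 3.29 FPKM in control and 2.29, 2.59 and 2.83 in cocktail. Only the top of its cocktail range reached the bottom of its control range, and all 6 mice were lower, mouse 4 with a difference of -0.0048 on the log2 scale. The log2 fold change of Cd33 was -0.18 (SE 0.057, 95% interval -0.31 to -0.06, adjusted p 0.248). Siglech, of the same family as Cd33, had 0.19 and the IgG receptor Fcgr3, which shares the Fcer1g chain, had 0.16, with limma adjusted p of 0.495 and 0.522.

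**Figure D3:**
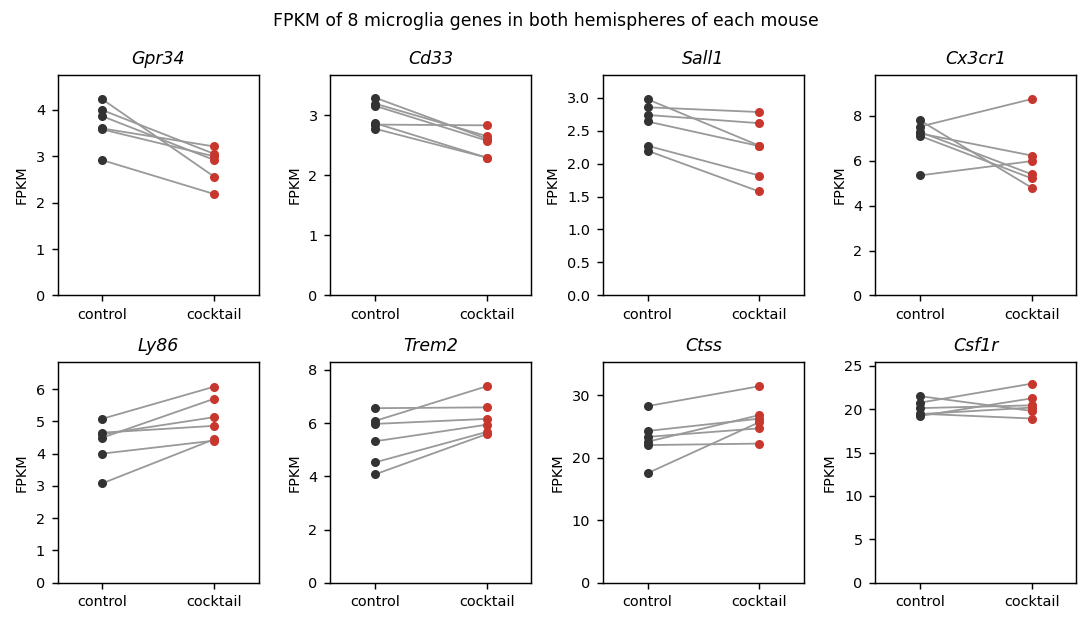
FPKM of 8 microglia genes in the control and the cocktail hemisphere of each mouse (lines join the hemispheres of 1 mouse). Gpr34, Cd33 and Sall1 are lower in cocktail in every pair and Ly86, Trem2 and Ctss higher in every pair, Cx3cr1 is higher in mice 2 and 6 only, and Csf1r stays within 18.9 to 22.9 FPKM.

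Among lysosomal and endosomal genes, Ctss had 17.5, 22.9 and 28.2 FPKM in control and 22.2, 25.9 and 31.4 in cocktail and was higher in all 6 mice. The control hemisphere of mouse 1 was the lowest, and the largest within-mouse difference, 0.53, was in that mouse. Its log2 fold change was 0.19 (SE 0.064, 95% interval 0.05 to 0.33, adjusted p 0.350). The lysosomal membrane gene Laptm5 had 0.13, Cd68, the usual histological marker of phagocytic lysosomes, 0.06, and Unc93b1, the chaperone of endosomal Toll-like receptors, 0.01. The pore-forming Mpeg1 had -0.07. None of these 5 was called, Ctss alone had an unadjusted p under 0.05, and 4 of the 5 were positive, or 3 under quantile normalization, in the voom fit, without mouse 1 and without mouse 5.

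All 4 adhesion genes were positive, except Selplg in the voom fit, and none was called, with 1, Cd53, at an unadjusted p under 0.05. Cd53, a tetraspanin of leukocytes, had 3.31, 4.05 and 4.61 FPKM in control and 3.98, 4.46 and 5.41 in cocktail, with 5 of 6 mice higher and a log2 fold change of 0.19 (SE 0.062, 95% interval 0.05 to 0.32, adjusted p 0.314). Itgam and Itgb2, the chains of complement receptor CR3, had 0.09 and 0.13, and Selplg, a selectin ligand, had 0.03. Itgam shares 3450 exon bases with Gm49368 on the same strand, so the reads of these genes cannot be told apart there. Of the signalling genes, Inpp5d, an inositol phosphatase, had 0.14, and the kinase Lyn and the exchange factor Cyth4 had -0.02 and -0.01. Lyn shares 248 exon bases with Gm26857 on the opposite strand, with the same limit. Ptprc, which was not tested, had 0.612, 0.796 and 0.977 FPKM in control and 0.477, 0.666 and 0.797 in cocktail.

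The remaining members were named for their enrichment in microglia rather than for a shared role. Tmem119, a membrane protein used to tell microglia from infiltrating cells, had 2.77, 3.58 and 4.55 FPKM in control and 2.26, 3.87 and 4.74 in cocktail. Mice were divided 3 to 3, and the log2 fold change was -0.02 (SE 0.088, 95% interval -0.21 to 0.17, adjusted p 0.979). Olfml3, a secreted protein, had 3.39, 5.84 and 6.41 FPKM in control and 4.81, 6.20 and 7.99 in cocktail, higher in 5 of 6 mice with overlapping groups, and a log2 fold change of 0.21 (SE 0.065, 95% interval 0.07 to 0.35, adjusted p 0.230). Aif1, the calcium-binding protein IBA1, had 0.12 with the interval -0.02 to 0.26. Slc2a5 had means of 0.694 FPKM in both groups when rounded to 3 digits.

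High and low values gathered in particular hemispheres. Of the 35 tested, 15 had the highest of their 6 cocktail values in mouse 5 and 0 the lowest, while mouse 1 held the lowest cocktail value of 13 and mouse 2 that of 11. In control, mouse 5 held the highest value of 10 members and mouse 2 the lowest of 12. The same counts were not made over all loci. Summed FPKM of all loci also differed between libraries. In control it was highest in mouse 5 (321723) and lowest in mouse 1 (290155), and in cocktail highest in mouse 3 (321759) and lowest in mouse 1 (310768). Whether the gathering is particular to the members was not tested. The number of members higher in the cocktail hemisphere ran from 14 in mouse 1 and 17 in mouse 2 to 21, 25, 23 and 23 in mice 3 to 6. The median difference of the members was largest in mouse 5 at 0.12, where the median over all loci was -0.05, and in mouse 1 the members had -0.01 and all loci 0.10. The SD of the within-mouse differences had a median of 0.16 over the members and 0.15 over all loci. Markers of other cells were not called by limma either, and only 1 of them, an astrocyte marker, had an unadjusted p under 0.05: all 8 oligodendrocyte markers had positive log2 fold changes with a median of 0.12, 7 of 8 astrocyte markers with 0.06, 5 of 8 endothelial and mural markers with 0.04 and 4 of 8 neuronal markers with 0.03. Without mouse 1, 4 of 8 astrocyte markers were positive, and the medians were 0.06 for oligodendrocytes, 0.00728 for astrocytes, 0.00881 for endothelial and mural cells and -0.02 for neurons. Under quantile normalization 6 of 8 astrocyte markers were positive and the neuronal median was -0.03. The part of these cells' shares in the differences of the microglia genes was not tested.

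Further microglia-enriched genes, a list of 60 of which 43 were tested, had 20 positive and 23 negative log2 fold changes with a median of -0.02, and 2 were called, beside 1.50% of all loci. The balance of signs was not stable, with 22 positive and 21 negative without mouse 3, 22 of each without mouse 2, and 8 positive and 5 negative at a mean of at least 5 FPKM. Irf8, a transcription factor that with PU.1 sets macrophage and microglial programmes, had 2.37, 2.51 and 3.12 FPKM in control and 1.61, 1.74 and 2.05 in cocktail. The groups did not overlap, and Irf8 fell with a log2 fold change of -0.39 (SE 0.060, 95% interval -0.52 to -0.26, adjusted p 0.00476). Irf8 was called in all 15 settings computed for it, with adjusted p of 0.00276 to 0.0283, whereas Gpr34 was called in 7 of 15. Entpd1, the ectoenzyme CD39 that breaks down extracellular ATP and ADP, had 3.40, 3.80 and 4.57 FPKM in control and 4.73, 4.89 and 5.15 in cocktail, again without overlap. It rose with a log2 fold change of 0.28 (SE 0.062, 95% interval 0.15 to 0.42, adjusted p 0.0480), and this call held in 7 of 15 settings. Entpd1 is also expressed by blood vessel cells. Summed over the 60 genes, control libraries held 1025 to 1171 FPKM, beside 274 to 300 for the 37 members. Which cells carried the transcripts of this list was not tested.

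Genes of ligands for microglial receptors showed no call among the 9 tested, and which cells made them was not tested. Cx3cl1, which encodes fractalkine, had 342 ± 31.0 FPKM in control and 336 ± 23.1 in cocktail (SD, n = 6), far above its receptor Cx3cr1, and a log2 fold change of -0.02. Il34 had 30.1 ± 3.03 and 28.6 ± 1.33 FPKM and Csf1 6.23 ± 1.08 and 5.66 ± 0.858, with log2 fold changes of -0.07 and -0.11. Csf1 had the lowest and Tgfb1, at 0.18, the highest difference of the list. At an unadjusted p under 0.05 stood 0 of the 9.

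Cytokine and chemokine genes that activated microglia make were read in the same hemispheres. The 9 genes Tnf, Il1a, Il1b, Ccl2, Ccl3, Ccl4, Ccl12, Cxcl2 and Cxcl10 summed to 92.0, 156 and 213 FPKM (lowest, median and highest) in control and 49.4, 64.6 and 120 in cocktail, lower in 6 of 6 mice. Of the 9, 7 fell by the limma test, from -1.47 for Tnf to -0.66 for Ccl2 on the log2 scale, and Il1a and Il1b had 0.01 and 0.07 with adjusted p of 0.992 and 0.951. Of all loci 0.274% were called lower. The calls of Ccl2 (0.0795 without the filter, 0.0588 without mouse 2, 0.1004 in voom), Cxcl2 (0.0930 without the filter, 0.176 without the block, 0.0583 without mouse 4, 0.134 in voom) and Tnf (0.0591 without the block) were lost at these adjusted p, and those of Ccl3, Ccl4, Ccl12 and Cxcl10 were kept in every setting computed for them. Ccl3 alone, at 46.1 ± 17.3 FPKM in control and 18.6 ± 6.26 in cocktail, had a higher mean in control than any of the 37 members. The list held 10 genes, and the sum of 9 leaves out the prostaglandin enzyme Ptgs2, which neurons also express. Ptgs2 was called higher and rose by 1.04. With Ptgs2 the sums were 107, 178 and 236 FPKM (lowest, median and highest) in control and 95.5, 110 and 157 in cocktail. The cocktail sum of the 10 was higher in 0 mice. These genes are not made by microglia alone, and which cells carried the difference was not tested.

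**Figure D4:**
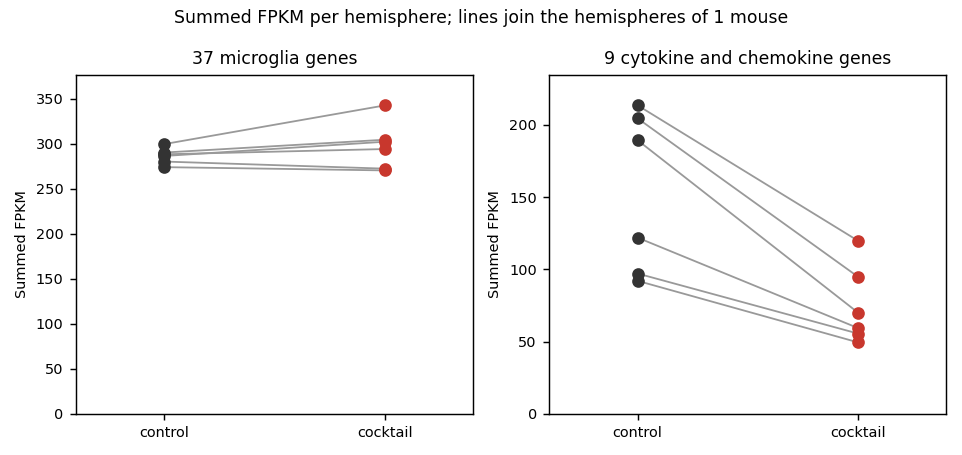
Summed FPKM per hemisphere of the 37 microglia genes (left) and of 9 cytokine and chemokine genes, with Ptgs2 left out (right). Lines join the hemispheres of 1 mouse, and both axes start at 0. The left sums lie between 274 and 300 in control and between 270.2 and 342 in cocktail, and the right sums are lower in cocktail in 6 of 6 mice.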

How the data were processed

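Polyadenylated RNA of 6 control and 6 cocktail hemispheres was sequenced in 1 lane as single reads. The authors removed ribosomal reads with BWA 0.6.1, mapped the rest to mm10 with TopHat 1.4.1, keeping 1 placement per read, and estimated the deposited FPKM values with Cufflinks 1.3.0, with bias correction and protein coding RefSeq genes in the denominator. Single placement lowers genes with near-identical copies. The reads were strand specific, but the strand setting of Cufflinks is not given in the sources used here. The authors also counted reads with HTSeq 0.6.1p1 and compared the groups with DESeq2 1.6.3. The deposited table of that comparison holds mean counts, fold changes, p-values and mean FPKM, and was not used.

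Here limma 3.58.1 (R 4.3.3) was fitted to log2(FPKM + 1) of every locus whose mean reached 1 FPKM, with a trend in the variance, the mouse as a block and Benjamini-Hochberg adjustment over 12032 loci at 0.05. Fold changes on this scale understate those of low genes. For single genes the signs of the 6 paired differences were also flipped in an exact two-sided permutation test. The fit was tested on simulated data. Reads were recovered from the Cufflinks interval of each value, and of 36048 values under 20 reads 83.4% were whole to within 0.05. Counting errors from them cover counting only.

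The mouse numbers in the labels pair the hemispheres. Across loci, deviations of libraries from their group means correlated at 0.216 to 0.406 (median 0.337) in the 6 pairs of the same mouse and at -0.420 to 0.445 (median -0.0714) in 30 pairs of different mice.

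The members and the gene lists were chosen with earlier results of these data known. Every member is accounted for, and given in full are those called, the 5 highest in control, the 5 largest and 5 smallest log2 fold changes, the C1q chains and Cx3cr1, P2ry12, Tmem119 and Csf1r. Trem2 is given by its values as well because all 6 mice went one way, chosen after its values were seen. In other lists, the genes called or the extremes are named; Il34, Cx3cl1, Il1a and Il1b were added after their values were seen. Alternatives were another pseudocount, other filters, other scalings, no trend, no block, voom on recovered reads, OK status only, and each mouse left out. Coordinates are those of the tables, exon overlaps come from GENCODE M21, and promoters from RefSeq on GRCm38.p6. Figures were drawn with matplotlib 3.10.9.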

Additional observations from a re-analysis of the deposited data

Results flagged for a closer look

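Among 111 groups of 6 values, the control FPKM, the cocktail FPKM and the within-mouse difference of each of the 37 genes, 9 had a single value far from the other 5 by Dixon's test, and chance gives about 5.55. In control, C1qc in mouse 6 had 28.6 FPKM while the other 5 had 23.4 to 24.1, Cx3cr1 in mouse 2 had 5.34 beside 7.10 to 7.79, Siglech in mouse 1 had 2.41 beside 3.27 to 3.54, and Aif1 in mouse 5 had 2.93 beside 1.75 to 2.03. In cocktail, C1qb in mouse 5 had 33.3 FPKM beside 23.0 to 26.7, and Cx3cr1 in mouse 6 had 8.74 beside 4.79 to 6.23.

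Of the within-mouse log2 differences, that of C1qa was -0.21 in mouse 1 and 0.10 to 0.25 in the others, and that of Fcgr3 was -0.15 in mouse 2 and 0.15 to 0.32 in the others. For Cd33 it was -0.0048 in mouse 4 and -0.25 to -0.20 in the others. These values belong to 5 of the 6 mice, all but mouse 3, and none of the 9 concerns Gpr34.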

How the results depend on the processing

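Between 172 and 181 loci were called with the other pseudocount, both other scalings, no variance trend or OK status only, against 180, and 1 member, Gpr34, in each. Without the filter 123 of 17477 loci were called and at a mean of at least 5 FPKM 131 of 8522, with 0 members in both; Gpr34 was not among the loci of the second. The voom fit called 118 loci and 0 members. Leaving out 1 mouse gave 104 (mouse 4) to 183 loci (mouse 6) and 0 to 1 members, the 1 only without mouse 6, and a member median from 0.00427 (mouse 5) to 0.0814 (mouse 6). Fewer samples or other numbers of loci enter these fits by construction, and beyond that the cause was not tested. Without the replicate block 88 loci and 0 members were called, and Gpr34 had an adjusted p of 0.186 and 0.137 without the filter.

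Of 233 alternatives of the 16 members given in full, 218 kept direction and side of the threshold, 8 lost the call of Gpr34, and 7 turned sign, all with sizes of at most 0.0304. C1qb had -0.0185 in the voom fit and -0.0264 to 0.0627 with 1 mouse left out, C1qc -0.0106 (mouse 5) to 0.108, and Tmem119 -0.117 to 0.0304, above 0 without mice 1, 4 and 5. The mean log2 ratio of the summed FPKM stayed between 0.02 and 0.07. The other pseudocount does not enter a sum. Of 266 alternatives of the 18 other genes called, 16 lost the call (Entpd1, Ccl2, Cxcl2 and Tnf) and 0 turned. Depth limits genes such as Aif1 and P2ry13, with 30 and 31 reads in their lowest library.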

Other observations

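Genes that rise in microglia around plaques and in degenerating tissue, the disease-associated set, showed no common shift between the hemispheres. Of 20 such genes 16 were tested, 11 had positive and 5 negative log2 fold changes with a median of 0.03, and 0 were called by limma, with 2 at an unadjusted p under 0.05. Ctsl, a lysosomal protease, had the largest difference, 0.20, with 37.9 ± 6.26 FPKM in control and 43.6 ± 6.88 in cocktail (SD, n = 6), and Spp1, osteopontin, the smallest, -0.20, with 3.56 ± 0.991 and 2.93 ± 0.526. Apoe, which astrocytes make as well, had 548 ± 34.0 and 561 ± 34.7 FPKM. The 20 genes summed to 2396 to 2735 FPKM in control, beside 274 to 300 for the 37 members. Which cells carried these transcripts was not tested.

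Ly86 and Cd180 encode the chains of 1 receptor complex of the Toll-like receptor family and had opposite signs. Ly86 was higher in all 6 cocktail hemispheres with a log2 fold change of 0.20, and Cd180 was lower in all 6, at 2.18 ± 0.346 FPKM in control and 1.50 ± 0.505 in cocktail (SD, n = 6), with -0.37 (SE 0.085, limma adjusted p 0.0634). Neither was called, Cd180 was chosen after its values were seen, and the difference between them was not tested. Among the transcription factors of the wider list, Irf8 fell, while Irf5, at 2.48 ± 0.657 FPKM in control and 3.05 ± 0.556 in cocktail, was higher in all 6 mice with a log2 fold change of 0.23 and a limma adjusted p of 0.429, and was also named after its values were seen. Apbb1ip, an adaptor of integrin activation, was lower in all 6 mice with -0.26 and a limma adjusted p of 0.138. Tgfbr1 and Csf3r were lower in all 6 mice with -0.17 and -0.12 and limma adjusted p of 0.295 and 0.655. These genes were likewise chosen after their values were seen. Among all loci 2.66% were lower and 3.64% higher in all 6 mice, and the number of such genes in the wider list was not counted.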
